A study of Mus musculus with 6 samples.

Results

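Of the 23420 genes in a count table of the mouse retina, 10 are described here: Trem2, Tyrobp, Clec7a, Apoe, Lpl, Spp1, Lgals3, Gpnmb, Cst7 and Wfdc17. They were chosen by symbol, as genes of the Trem2-linked phagocyte state, and all 10 have a row in the table. The table held 6 libraries of mouse retinal RNA, 2 per group. The control group received neither light nor drug, the light group was analysed 4 days after 1 h of light at 10000 lux, and the light plus minocycline group received the same light with minocycline at 45 mg/kg, injected intraperitoneally each day for 4 days. The labels give the strain as CD1 for all 6 libraries, whereas the methods of the study name BALB/cJ mice of both sexes, brighter light and another minocycline schedule, so that the strain and the light dose cannot be settled from these sources. Both names stand for albino mice, and neither source names a genetic modification in any group. The columns of the minocycline group share a single header, and its libraries are named minocycline A and B here.

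Microglia, the resident phagocytes of the retina, keep a surveying profile in healthy tissue and switch on another programme when they meet dying neurons, lipid debris or plaques. In that programme the lipid-sensing receptor Trem2 signals through its adaptor Tyrobp and the kinase Syk, and transcripts for lipid handling, lysosomal degradation and secreted matrix proteins accumulate. Infiltrating macrophages can carry the same programme, and several of its genes are used by other cells too: Apoe by glia, Lpl by adipose and muscle tissue, and Gpnmb by pigment cells.

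The libraries held between 15205930 and 22856922 counts. The 10 genes together took 0.0222% and 0.0194% of the counts in the controls, 0.133% and 0.464% in light 1 and light 2, and 0.0495% and 0.0651% in minocycline A and B. The summed level of 7 rod genes was lowest in light 2, at 39916 CPM (counts scaled to library size, with factors from the trimmed mean of M values, TMM), against 75761 to 97233 in the controls, so the defining markers of retina were present throughout. Summed levels of pigment cell, corneal and smooth muscle genes were highest in the minocycline libraries. The summed level of 10 pigment cell genes ran from 29.6 to 89.3 CPM in the other 4 libraries and was 333 and 1454 CPM in minocycline A and B, and 7 corneal epithelium genes ran from 2.25 to 15.3 CPM and were 193 and 270 CPM. The smooth muscle and stroma genes, 7 in number, ran from 6.78 to 21.9 CPM and were 82.1 and 408 CPM. Pigment epithelium genes, at 114 and 181 CPM with minocycline, were within or below their range of 144 to 359 CPM in the other libraries. Control 1 held 77778 counts of Xist and 11 counts over 4 Y-linked genes, while Xist ranged from 25 to 188 counts and the Y-linked sum from 6532 to 12858 elsewhere. The part of these differences in the results was not tested.

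Per kilobase of exon, Apoe led the 10 genes in the controls, at a mean of 89.0 CPM per kb, followed by Tyrobp at 5.31 and Spp1 at 2.79 CPM per kb. In the light group Spp1 led, at 616 CPM per kb, ahead of Apoe at 493 and Tyrobp at 131 CPM per kb. With minocycline the order was Apoe at 167, Gpnmb at 26.1 and Spp1 at 10.6 CPM per kb. Cst7 was last in the control and minocycline groups, at 0.143 and 0.200 CPM per kb, and Lpl was last in the light group, at 1.66 CPM per kb. Spp1 made up 1.93% and 2.19% of the counts of the 10 genes in the controls, 29.6% and 40.1% in light 1 and light 2, and 2.87% and 3.08% in minocycline A and B. Gpnmb made up 41.9% of them in minocycline B alone, against 11.6% in minocycline A.

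**Figure D1:**
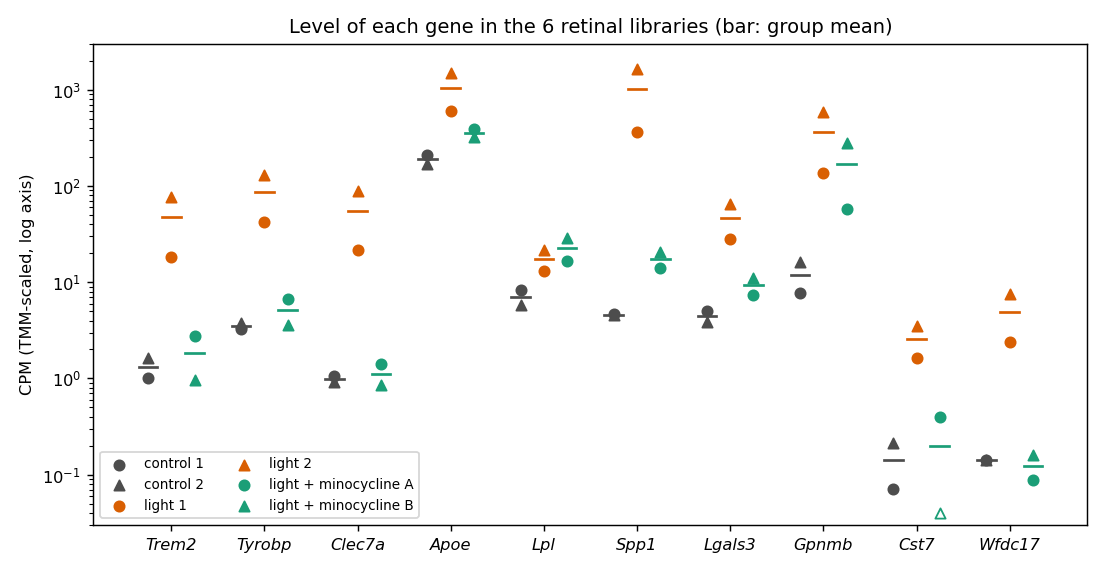
Level of each of the 10 genes in the 6 libraries, in TMM-scaled CPM on a log axis. Points are libraries (circle, replicate 1 or A; triangle, replicate 2 or B), short bars are group means, and the open triangle at the bottom is Cst7 in minocycline B, which held 0 counts. Both light libraries lie above both controls for every gene, and only Lpl and Gpnmb have a minocycline library within or above the light range.

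Because both light libraries were high for all 10 genes, the 250 bases before the RefSeq start were read for the 8 of them with a promoter entry (GRCm38.p6). The letters GAGGAAG, the core of a PU.1-type ETS site bound by the myeloid factor PU.1, were found on either strand in 3 of the 8 windows (Spp1, Wfdc17 and Trem2) and in 10.4% of 27025 promoters. The AP-1 letters TGANTCA were found in Trem2 and in 6.87% of promoters. None of the 8 windows held the C/EBP letters TTGCNNAA (9.55% of promoters), the E-box CACGTG (6.05%) or the M-box TCATGTG read by the pigment cell factor MITF (3.22%). The windows of Spp1, the gene with the largest change, and Trem2, the receptor that gives the state its name, are shown with these matches in capitals. The Spp1 match starts 113 bases before the start on the gene's strand. The PU.1-type match of Trem2 is on the opposite strand, 41 bases before the start, and its AP-1 match lies 9 bases before it, without overlap. The Wfdc17 match lies 40 bases before the RefSeq start, but within the gene as placed by the GENCODE coordinates given below. The Lgals3 window, which held no match, also lies within its GENCODE coordinates. These are matches of letters and not measured binding.
Spp1, chr5:104434861-104435110, plus strand, GRCm38.p6: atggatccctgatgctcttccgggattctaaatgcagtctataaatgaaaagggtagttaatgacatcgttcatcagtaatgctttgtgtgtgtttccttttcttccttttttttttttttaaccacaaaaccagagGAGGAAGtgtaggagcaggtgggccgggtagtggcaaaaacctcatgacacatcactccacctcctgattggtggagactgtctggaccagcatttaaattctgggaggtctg
Trem2, chr17:48346151-48346400, plus strand, GRCm38.p6: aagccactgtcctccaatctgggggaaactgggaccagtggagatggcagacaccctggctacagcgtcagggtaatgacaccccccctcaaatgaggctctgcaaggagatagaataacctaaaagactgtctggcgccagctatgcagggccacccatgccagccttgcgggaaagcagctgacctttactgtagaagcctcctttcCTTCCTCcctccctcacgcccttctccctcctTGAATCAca

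The first comparison asked what light did to these genes after 4 days. Both light libraries were above both controls for 10 of 10 genes, which held for 30.1% of the 14349 genes tested. A gene was called when the quasi-likelihood test of edgeR gave p under 0.05 after Benjamini-Hochberg adjustment over all genes tested, and its log2 change was 2 or more in size. By this rule Apoe, Lgals3, Cst7 and Wfdc17 rose, 4 of the 10 genes, against 2.89% of all genes called higher. Cst7 and Wfdc17 had 3 counts or fewer in each control and passed the count filter only through the light libraries. An adjusted p under 0.05 without regard to the fold was reached by 5 of 10 (7.52% of all genes), and an unadjusted p under 0.05 by 10 of 10 (16.5%). The median fitted log2 change of the 10 genes was 4.78, or 4.58 with the genes at 3 counts or fewer in each control set to their fold against 3 counts, while that of all genes tested was 0.0025. The light libraries stood apart from each other: light 2 exceeded light 1 for each gene, by 1.67-fold for Lpl up to 4.55-fold for Spp1. Calls were 8 of 10 without light 2 (1.70% of all genes), 9 without light 1 (5.002%), and 0 without control 1 or control 2 (0.0202% and 0.0875%). The fitted log2 changes of the 10 genes ran from 0.90 to 6.32 without light 2 and from 1.64 to 8.504 without light 1. More phagocytes and more RNA per phagocyte cannot be told apart in bulk tissue.

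Trem2 and Clec7a encode receptors, and Tyrobp encodes the adaptor of Trem2. Trem2 (chr17:48346401-48354147), which binds lipids and lipoproteins, was at 0.999 and 1.62 CPM in the controls and at 18.2 and 76.4 CPM in light 1 and light 2. Tyrobp (chr7:30413760-30417585), the membrane adaptor that passes its signal on, was at 3.28 and 3.80 CPM and at 42.6 and 131.5 CPM. Clec7a (chr6:129461591-129472779), the beta-glucan receptor Dectin-1, was at 1.07 and 0.914 CPM and at 21.6 and 89.8 CPM. In all 3 the light libraries lay far above the controls, and in CPM the gap between the light libraries was far wider than the gap between the controls. The means differed 36.2-fold for Trem2 (log2 change 5.18, SE 1.15), 24.6-fold for Tyrobp (4.63, SE 0.83) and 56.1-fold for Clec7a (5.81, SE 1.18). None of the 3 passed, with edgeR adjusted p of 0.105, 0.0756 and 0.0918. Without light 2 the fitted log2 changes were 3.80, 3.60 and 4.44, and without light 1 they were 5.87, 5.22 and 6.50. The ratio of Trem2 to Tyrobp CPM was 0.304 and 0.426 in the controls, 0.426 and 0.581 after light, and 0.414 and 0.265 with minocycline. It was highest in light 2 and lowest in minocycline B, and light 1 and control 2 were both at 0.426.

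Apoe and Lpl handle lipids. Apoe (chr7:19696109-19699188), the main lipid carrier of nervous tissue, was at 209 and 171 CPM in the controls and at 608 and 1501 CPM after light. It rose 5.54-fold in the mean (log2 change 2.48, SE 0.47, edgeR adjusted p = 0.0375), and the fitted change was 1.68 without light 2. The call was lost without light 2, without either control, with DESeq2's normal prior and without a count filter (edgeR adjusted p = 0.126, in a range of 2.25e-10 to 0.256 over all alternatives). Of 10 genes of Müller glia, which also express Apoe, 3 had an edgeR adjusted p under 0.05 after light (7.52% of all genes): Gfap, the glial filament called at a log2 change of 2.02, Vim at 1.71 and Slc1a3 at 1.13, the last 2 chosen after their values were seen. The summed level of the 10 was 2947 and 2037 CPM in the controls, 3306 and 3787 CPM after light, and 3754 and 2781 CPM with minocycline, and the part of these cells in the Apoe level was not tested. Lpl (chr8:68880491-68907448), the lipase that frees fatty acids from lipoproteins, was at 8.35 and 5.76 CPM and at 13.05 and 21.8 CPM. Its groups did not overlap, but the distance between light 1 and control 1 was small beside that of the other genes. Its change of 2.47-fold (log2 1.32, SE 0.30) had an edgeR adjusted p of 0.0249 and stayed under the fold required for a call.

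Spp1 and Lgals3 encode secreted proteins that bind integrins, matrix and glycans. Spp1 (chr5:104435118-104441050), osteopontin, was at 4.64 and 4.57 CPM in the controls and at 366 and 1664 CPM after light, from 65 counts in each control to 35124 counts in light 2. The controls were almost equal and the light libraries were the farthest apart of all 10 genes. The means differed 221-fold (log2 change 7.79, SE 1.21, edgeR adjusted p = 0.0610), which is not a call, and the fitted log2 change was 6.32 without light 2 and 8.504 without light 1. The annotation places Gm42793, a transcript of uncertain status, on the same strand over exons of Spp1, and 11.6% of the 50-base words of Spp1 recur there, so a share of reads could have been assigned to either. Lgals3 (chr14:47367751-47386160), the galactoside-binding galectin-3, was at 4.995 and 3.87 CPM and at 28.4 and 64.9 CPM. It rose 10.5-fold (log2 change 3.41, SE 0.47, edgeR adjusted p = 0.0199), and by 2.69 on the log2 scale without light 2.

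The remaining 3 genes belong to phagosomes, lysosomes and secreted protease inhibitors. Gpnmb (chr6:49036546-49070929), a glycoprotein of phagosomes and melanosomes, was at 7.71 and 16.2 CPM in the controls and at 136 and 586 CPM after light. The means differed 30.2-fold (log2 change 4.92, SE 1.22), and with the widest SE of the 10 genes the edgeR adjusted p was 0.151. The fitted change was 3.51 without light 2 and 5.62 without light 1. Cst7 (chr2:150570415-150578944), the cathepsin inhibitor cystatin F, had 1 and 3 counts in the controls and 28 and 74 counts after light. The ratio of light to control was 18.8, with an exact 95% interval of 7.13 to 70.4 from the counts alone, and it was called higher (edgeR adjusted p = 0.0109). Leaving out one library moved that ratio between 11.5 (light 2) and 37.3 (control 2), with 12.6 without control 1 and 24.8 without light 1. Wfdc17 (chr11:83703991-83706268), a whey acidic protein of activated microglia and macrophages also called AMWAP, had 2 counts in each control and 41 and 158 counts after light. Its ratio was 36.7 (exact 95% interval 14.1 to 136), and it was called with the smallest adjusted p of the 10 genes (edgeR adjusted p = 0.0101), although the ratio was 16.9 without light 2 and 52.9 without light 1. These intervals cover counting error only.

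**Figure D2:**
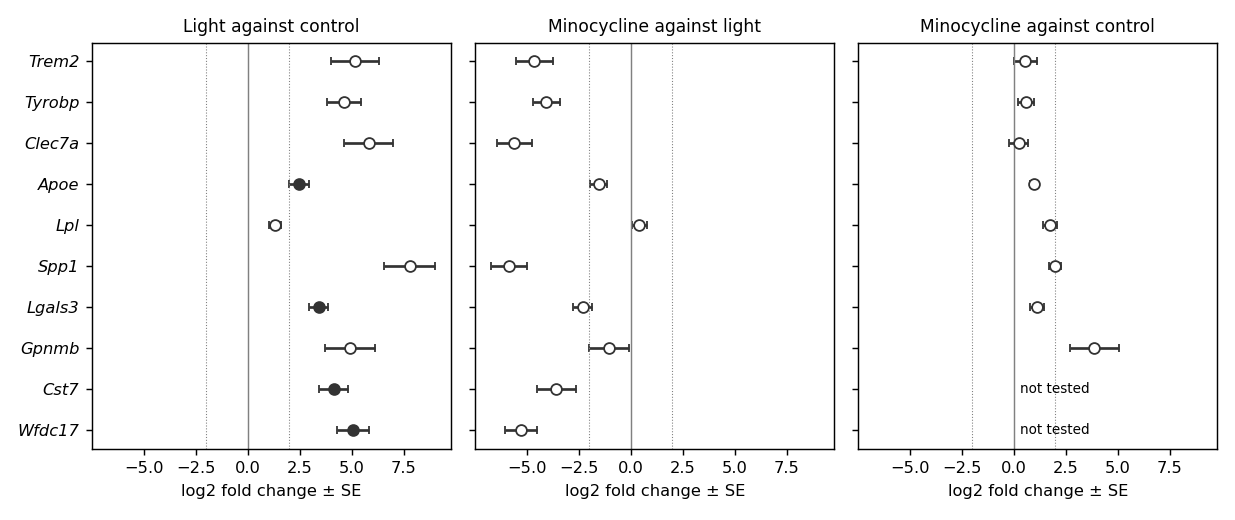
Fitted log2 fold change of each gene (edgeR, bars are 1 SE) in the 3 comparisons, with filled points for calls and dotted lines at a log2 change of 2 on either side of 0. After light all 10 genes lie right of 0 and 4 are filled; with minocycline against light 9 lie left of 0 and none is filled; Cst7 and Wfdc17 did not pass the count filter between minocycline and control. The fitted changes of Cst7 and Wfdc17 depend on the prior count.

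To see whether these genes moved beyond microglial genes as a whole, each was set against the mean log2 CPM of 12 genes of surveying microglia, such as P2ry12, Tmem119 and Cx3cr1. That mean was itself higher after light, at 2.95 and 4.27 against 1.13 and 0.85 in the controls, and 6 of the 12 genes were called higher, beside 2.89% of all genes. Relative to it, 8 of the 10 genes were higher in both light libraries than in both controls, as were 1.21% of all genes tested. Since that mean itself rose, a gene without a rise falls against it, so the share over all genes is no reference for myeloid genes. For Cst7 the gap was narrow, with control 2 at -2.49 and light 2 at -2.41. Spp1 had the largest difference, 4.75 on the log2 scale, followed by Clec7a at 2.71, Trem2 at 2.14, Gpnmb at 2.03 and Tyrobp at 1.75. Wfdc17 differed by 1.49, Cst7 by 0.76 and Lgals3 by 0.64. Cst7 and Wfdc17 had 3 counts or fewer in each control, so their differences, here and below, depend on the prior count of 2. Apoe and Lpl went down relative to that mean, at -0.28 and -1.35. Other cells also use both genes and their part was not tested, so these values are not levels per phagocyte. With 2 libraries per group all of these differences are descriptions, since an exact permutation test of 2 against 2 cannot reach 0.05. They also depended on the yardstick. The 13 genes shared by all myeloid cells had a median log2 change of 4.39 after light, with 5 of 13 called (2.89% of all genes), against 4.78 for the 10 genes. Relative to their mean, Spp1 kept a difference of 3.55, Clec7a of 1.51, Trem2 of 0.94, Gpnmb of 0.83, Tyrobp of 0.55 and Wfdc17 of 0.29, whereas Cst7 (-0.44), Lgals3 (-0.56), Apoe (-1.48) and Lpl (-2.55) were lower. Of 9 monocyte and neutrophil genes in the table, 4 to 9 had 3 counts or fewer in each library, and their summed level was 0.422 to 0.928 CPM in the controls and 2.21 to 2.75 CPM after light.

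**Figure D3:**
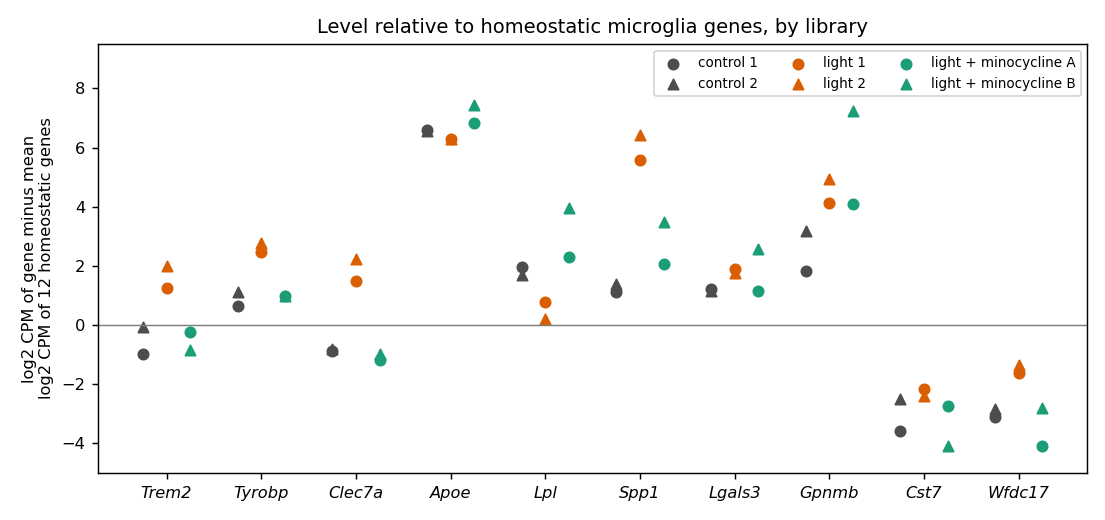
Log2 CPM of each gene minus the mean log2 CPM of 12 homeostatic microglia genes, by library. The light libraries lie above the controls for 8 genes, most for Spp1 (mean difference 4.75), and below them for Apoe and Lpl. Other cells also use Apoe and Lpl, and their part was not tested. The control values of Cst7 and Wfdc17 depend on the prior count.

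The second comparison asked what minocycline did in light-exposed retinas. For 8 of 10 genes both minocycline libraries were below both light libraries, against 28.1% of 14750 genes, and the same 8 had an unadjusted p under 0.05 (12.1% of genes in that direction). None of the 10 was called by edgeR (0.0339% of all genes were called lower), with adjusted p from 0.0698 for Spp1 and Wfdc17 to 0.593 for Gpnmb, while DESeq2 without shrinkage called 7 of 10 lower (1.99% of all genes). In edgeR, leaving out light 1 gave 7 calls (2.67% of all genes were then called lower), light 2 gave 2 (Spp1 and Clec7a, 0.160%), minocycline A gave 1 (Cst7, 0.105%) and minocycline B gave 0. The median log2 change was -3.82, against 0.0062 over all genes.

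The receptors were close to the control level with the drug. Trem2 was at 2.75 and 0.952 CPM in minocycline A and B, 25.5-fold under the light mean (log2 change -4.63, SE 0.88, edgeR adjusted p = 0.0845). Tyrobp was at 6.65 and 3.60 CPM, 17.0-fold under it (-4.07, SE 0.65, edgeR adjusted p = 0.0709). Clec7a was at 1.40 and 0.846 CPM, 49.6-fold under it (-5.60, SE 0.86, edgeR adjusted p = 0.0709). In each of the 3 minocycline A was the higher of the drug libraries, and minocycline B lay within or below the control range. Of the mean excess of light over control, the share left with minocycline was 1.19% for Trem2, 1.89% for Tyrobp and 0.239% for Clec7a, or 3.24%, 4.05% and 0.634% without light 2. In minocycline A and B that share was 3.15% and -0.77% for Trem2, 3.72% and 0.069% for Tyrobp, and 0.744% and -0.266% for Clec7a. The fitted log2 changes without light 2 were -3.28 for Trem2, -3.06 for Tyrobp and -4.26 for Clec7a.

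Among the secreted proteins and inhibitors, Spp1 was at 14.2 and 20.8 CPM with minocycline, 57.9-fold under the light mean (log2 change -5.84, SE 0.86, edgeR adjusted p = 0.0698). That left 1.28% of the excess, or 3.58% without light 2, where the fitted log2 change was -4.39, yet both libraries stayed above both controls. Lgals3 was at 7.43 and 11.2 CPM, 5.02-fold under light (-2.32, SE 0.45, edgeR adjusted p = 0.0845), with 11.5% of the excess left, or 20.3% without light 2. Wfdc17 had 2 and 3 counts, a ratio of light to minocycline of 43.4 (exact 95% interval 18.3 to 135), or 19.95 without light 2 and 62.6 without light 1 (edgeR adjusted p = 0.0698). Cst7 had 9 counts in minocycline A and 0 in minocycline B, which at 3 counts allows up to 0.159 CPM in B, and its mean was 13.1-fold under light (-3.58, SE 0.94, edgeR adjusted p = 0.115). The fitted change of Cst7 was -2.70 without minocycline B, and without minocycline A the drug group is at 0 counts. The counts of Wfdc17 were thus like those of the controls in both drug libraries, and those of Cst7 in minocycline B.

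In the group mean, Apoe, Lpl and Gpnmb had the largest shares of their excess left. In minocycline B alone the share was 15.9% for Lgals3 and 15.8% for Apoe. Apoe was at 388 and 327 CPM with minocycline, 2.95-fold under light (log2 change -1.55, SE 0.43, edgeR adjusted p = 0.129), with 19.3% of its excess left, or 40.0% measured against light 1 alone. Lpl was at 16.6 and 29.0 CPM, which overlapped the light libraries, and its difference from light was 0.40 (SE 0.36, edgeR adjusted p = 0.588), or -0.077 without minocycline B, so that 152% of its excess over control was present, or 263% without light 2. Gpnmb was at 57.3 and 283 CPM and overlapped them too, since minocycline B lay between light 1 and light 2. Its log2 difference of -1.06 (SE 0.96, edgeR adjusted p = 0.593) turned to 0.32 without light 2. For Gpnmb minocycline B was 4.94-fold above minocycline A, and the excess left was 12.997% in A and 77.7% in B (45.4% in the mean, or 128% without light 2).

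The third comparison set the treated, light-exposed retinas against controls. It shares its libraries with the other comparisons. Both minocycline libraries were above both controls for 5 of 10 genes (15.5% of 14181 genes): Apoe, Lpl, Spp1, Gpnmb and Lgals3. Of the 8 genes that passed the count filter 0 were called (0.134% of all genes were called higher), 1 had an adjusted p under 0.05 (0.162%) and 4 an unadjusted p under 0.05 (5.39%). Without minocycline A, 3 were called (Spp1, Gpnmb and Lpl, beside 1.91% of all genes called higher), and without minocycline B, 1 (Gpnmb, beside 0.681%). DESeq2 without shrinkage called 1, also Gpnmb (0.705% of all genes). Spp1 was 3.81-fold above control (log2 change 1.97, SE 0.28, edgeR adjusted p = 0.0437), just under the fold required. Apoe was 1.88-fold (0.95, SE 0.18, edgeR adjusted p = 0.117), Lpl 3.23-fold (1.73, SE 0.32, edgeR adjusted p = 0.118) and Lgals3 2.10-fold above control (1.11, SE 0.32, edgeR adjusted p = 0.356). Trem2, Tyrobp and Clec7a overlapped the controls, with log2 differences of 0.56, 0.58 and 0.23 (SE 0.56, 0.38 and 0.46). For Cst7 and Wfdc17 the counts of 9 and 0, and of 2 and 3, stood beside 1 and 3, and 2 and 2, in the controls, and no fold was computed.

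Gpnmb stood 14.3-fold above control with minocycline (log2 change 3.87, SE 1.17, edgeR adjusted p = 0.710), and the fitted change was 2.26 without minocycline B and 4.61 without minocycline A. These were the libraries with the high pigment cell sums. The ratio of Gpnmb CPM to the summed CPM of the 10 pigment cell genes was 0.260 and 0.181 in the controls, 3.37 and 9.59 after light, and 0.172 and 0.195 with minocycline. The pigment cell sum of the light libraries lay within the control range, and that of the minocycline libraries lay above it. The part of pigment cells in the Gpnmb level was not tested in either group. Of the pigment cell genes 9 were tested after light, 0 were called, and their median log2 change was -0.21. With minocycline against light 10 were tested, 0 were called, and the median was 3.78. Lpl, highest in minocycline B, stood beside smooth muscle and stroma sums of 82.1 and 408 CPM in minocycline A and B, and the part of these other cells in the Lpl level was not tested.

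**Figure D4:**
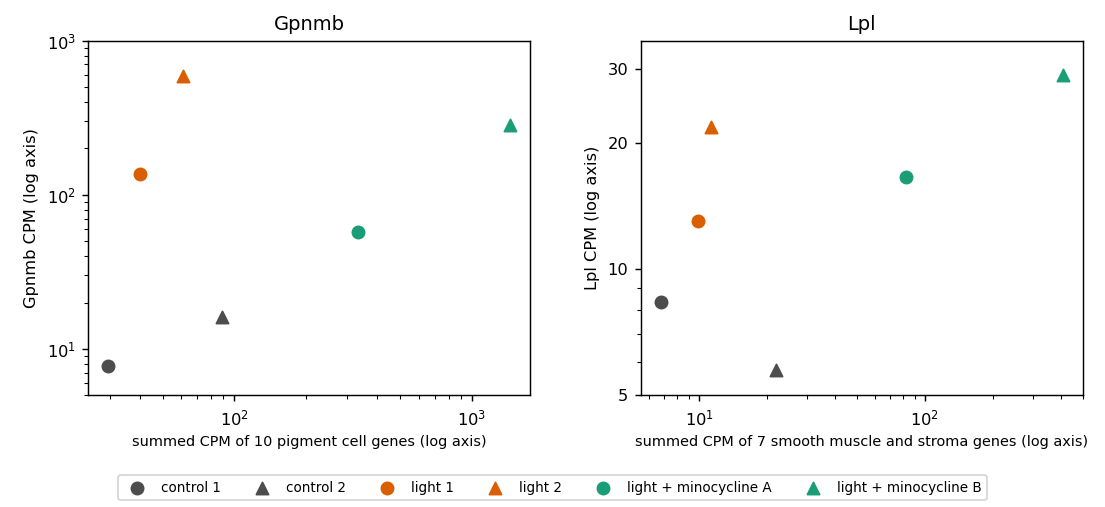
Left, Gpnmb CPM against the summed CPM of 10 pigment cell genes. Right, Lpl CPM against the summed CPM of 7 smooth muscle and stroma genes, 1 point per library, all axes logarithmic. The light libraries have Gpnmb at 136 and 586 CPM with pigment cell sums of 40.2 and 61.1 CPM, and the minocycline libraries have 57.3 and 283 CPM with sums of 333 and 1454 CPM.

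The partners of the 10 genes were read from 5 lists of related genes, of which 17 were called after light, 0 without control 1 or control 2 and 38 without light 1. Of 18 genes of the Trem2 and Tyrobp pathway 13 were tested after light, and 7 were called higher, beside 2.89% of all genes (median log2 change 2.09): the kinase Syk (4.68), the adaptor Blnk (4.51), the exchange factor Vav1 (4.33), Plcg2 (3.25), the adaptor Card9 (2.40), the phosphatase Ptpn6 (2.09) and the Trem family member Treml2. Treml2 had 0 and 3 counts in the controls and 24 and 40 after light. Syk went from 0.214 and 0.492 CPM to 4.48 and 13.8 CPM, and was at 0.831 and 0.317 CPM with minocycline. Syk lay above the controls in both light libraries, and in minocycline B it lay within the control range.

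Of 30 other genes of the phagocyte state 28 were tested, and 6 were called higher after light, beside the same 2.89% (median log2 change 2.36, or 2.33 with genes at the counting floor set to it). They were the cathepsin Ctsd (3.45), the fatty acid binding protein Fabp5 (2.96), the receptor Axl (2.39), which takes up dying cells, the surface peptide Cd52 (2.18), the inhibitory receptor Lilrb4 and the cholesterol hydroxylase Ch25h. Ctsd alone reached 1461 and 4684 CPM after light, against 311 and 254 CPM in the controls. Lilrb4 had 2 and 3 counts in the controls and 114 and 470 after light. Ch25h had 2 and 0 counts in the controls, 13 and 15 after light and 6 and 22 with minocycline, so it did not follow the other called genes in minocycline B.

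Among the lipid partners 2 of 15 tested genes were called higher (2.89% of all genes), with a median log2 change of 0.43. Apoc1 (2.95), the apolipoprotein encoded beside Apoe, went from 0.999 and 0.984 CPM to 6.35 and 9.004 CPM and was at 1.36 and 0.529 CPM with minocycline. Angptl4 (2.12), an inhibitor of the lipase Lpl, went from 0.642 and 0.211 CPM to 1.51 and 2.18 CPM. Among 10 receptors and partners of Spp1 and Lgals3, all tested, the integrins Itgb3 (3.27) and Itga5 (2.45) were called (2.89% of all genes) and the median was 1.36. None of the 7 tested cystatins, whey acidic proteins and their target proteases was called, with a median of 0.60. Their most abundant gene, Cst3, a cystatin of neural cells, was at 677 and 505 CPM in the controls, 521 and 490 CPM after light, and 646 and 644 CPM with minocycline. Lgmn, the lysosomal protease legumain, was at 214 and 186 CPM, 253 and 461 CPM, and 227 and 208 CPM in the same order. None of the genes in these 5 lists was called by edgeR in either minocycline comparison. Over the same lists DESeq2 without shrinkage made 24 calls with minocycline against light, where it called 1.99% of all genes lower and 0.719% higher, and 0 against control. An unadjusted p under 0.05 in edgeR was reached by 51 of 74 tested list genes with minocycline against light (21.1% of all genes, either direction) and by 21 of 63 against control (7.01%). The edgeR median log2 changes with minocycline against light were -2.18 for the Trem2 pathway, -1.81 for the other phagocyte genes, -0.51 for the lipid partners, -0.99 for the Spp1 and Lgals3 partners and -0.64 for the cystatin list.

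**Figure D5:**
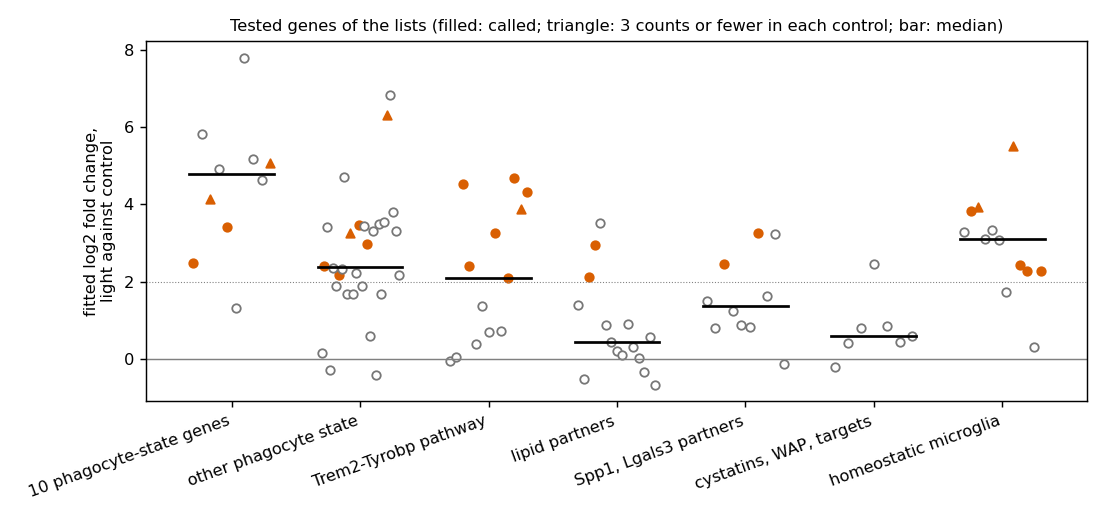
Fitted log2 fold change between light and control for each tested gene of 7 lists (edgeR). Filled points were called, triangles had 3 counts or fewer in each control, the black bar is the list median and the dotted line is the fold required. Medians run from 4.78 for the 10 genes and 3.09 for homeostatic microglia genes down to 0.43 for the lipid partners.

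Across the 6 libraries the log2 CPM of Trem2 and Tyrobp had the highest Pearson correlation of the 45 gene pairs (0.996), and Lpl and Cst7 the lowest (0.151). Without Lpl and Gpnmb the lowest of the 28 remaining pairs was 0.816, between Cst7 and Lgals3. The correlation of each gene with the mean of the other 9 was 0.477 for Lpl, 0.793 for Gpnmb and 0.850 for Cst7, and 0.936 to 0.994 for the other 7. Lpl and Gpnmb were also the only 2 of the 10 whose correlation with the pigment cell mean was above 0, at 0.632 and 0.394. Outside the 10 genes, the closest profiles to their mean among 13646 genes were those of Ppil3, Mt1, Clec5a, Ifnar2, Parp14, Ms4a7, Plcg2, 1810011O10Rik, Arhgdib and Mt2, with correlations of 0.998 to 0.996. All of these points share the same 6 libraries in 3 groups, with light 2 highest, and are given as descriptions.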

How the data were processed

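Libraries were prepared from retinal RNA with a stranded mRNA kit and sequenced as single reads of 50 bases, at a service facility named in the study. Per the labels and the methods of the study, reads were aligned to mm10 with STAR and assigned to genes. The study calls the deposited values normalized, but they are whole numbers with totals that differ between libraries, and they were treated here as raw counts per gene. The gene annotation, the use of the strand and the versions of STAR and DESeq2 were not given in the sources used here. Groups were compared in pairs by the robust quasi-likelihood test of edgeR 4.0.16 (R 4.3.3) after filterByExpr and TMM scaling, and p-values were adjusted by Benjamini-Hochberg over all genes tested. Log2 CPM used a prior count of 2, and 3 counts were taken as the floor. The self-test on simulated counts recovered 199, 195 and 197 of 200 changed genes at a log2 change of 3 in the 3 comparisons, on 14349, 14750 and 14181 genes. It called 0, 2 and 2 unchanged genes. Changed genes were drawn from those with a mean of at least 10 counts, with the same spread in both groups. The self-test therefore does not show the recovery of genes near the floor or with light libraries far apart. DESeq2 1.42.0, other scalings and filters, and leaving out each library were alternatives. The 10 genes and all lists were chosen with earlier results of these data known. List genes were named where called, otherwise by highest mean CPM, and the most similar genes by Pearson correlation among genes with a mean of at least 1 CPM. Coordinates are from GENCODE (GRCm38). The number of unused value columns was 0. Nothing states whether the libraries of a group came from separate animals beyond the name of biological replicates, so p-values measure the spread between these libraries.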

Additional observations from a re-analysis of the deposited data

How the results depend on the processing

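Calls depended strongly on the processing, and the cause was not tested. After light 4 of the 10 genes were called, but 8 with total library size or all 6 libraries in one fit, 9 with DESeq2 without shrinkage or edgeR without robust estimation, 1 with DESeq2's normal prior, 3 without a filter, and 0 to 9 with one library left out. The share of all genes called higher was 2.89%, and in the order of these 6 settings 3.94%, 2.90%, 3.09%, 3.42%, 0.537% and 2.64%. Of the list genes 17 were called, 30 with total library size or DESeq2 without shrinkage, 5 with the prior, 32 without robust estimation, 27 with all 6 libraries, 28 without the fold requirement, and 0 to 38 with one library left out. With minocycline against light 0 of the 10 genes were called, 1 without a filter, 7 with DESeq2, 5 with all 6 libraries, and 0 to 7 with one library left out. The list genes gave 0, then 12 without a filter, 24 with DESeq2, 2 with its prior and 11 with all 6 libraries. With that prior 0.149% of all genes were called lower and 0.0339% higher. With minocycline against control the 10 genes gave 0 calls, beside 0.134% of all genes called higher. They gave 1 with total library size (Spp1, 0.155%), 1 with DESeq2 (Gpnmb, 0.705%) and 1 without the fold requirement (0.162%). In the main fit the list genes gave 0. Directions changed in 4 cases. With one library left out, the log2 difference between minocycline and light ran from -0.077 (without minocycline B) to 0.79 for Lpl and from -2.66 to 0.32 (without light 2) for Gpnmb, and that between minocycline and control from -0.42 (without minocycline A) to 1.07 for Trem2 and from -0.19 (without minocycline A) to 0.49 for Clec7a. The median difference of the 10 genes from the microglial yardstick was 1.62, and 0.42 with the myeloid list. Total library size shifted the median of all genes to 0.24 after light and -0.17 with minocycline against light. Over all genes, calls after light were 415 higher and 4 lower, and ran from 3 higher without control 1 to 738 higher without light 1. With minocycline against light they were 2 higher and 5 lower, 0 and 2 with DESeq2 size factors or the upper quartile, 0 and 0 with total library size, 106 and 293 with DESeq2 without shrinkage, 72 and 209 without a filter, 63 and 218 with all 6 libraries, 27 and 406 without light 1, and 112 and 16 without minocycline A. With minocycline against control they were 19 and 0, 100 and 1 with DESeq2 without shrinkage, and 276 and 2 without minocycline A. With one library left out, the lone library of a group was assumed to vary like the other group.

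With the replicate number as a block, 8 of the 10 genes and 26 list genes were called after light, beside 3.30% of all genes. Deviations of same-numbered control and light libraries correlated at -0.004 over 13655 genes. This rests on a single difference per group, so it cannot decide whether the number pairs the libraries. No paired analysis was possible for minocycline because both of its columns carry the same header and cannot be tied to the replicate numbers of the samples. Groups of 2 libraries are too small to test for outlying libraries, and levels of Cst7 and Wfdc17 near 3 counts limit what depth can show.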
